A study of Komagataella phaffii with 102 samples.

Results

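The members described here are 41 of the 5116 genes measured by RNA-seq in 11 strains of Komagataella phaffii (Pichia pastoris), a methylotrophic yeast used to secrete recombinant proteins. They were chosen for a higher level in the strain GS115 than in its 2 relatives X-33 and Y-48124 in each of 3 culture conditions. Levels were CPM, counts scaled to the same total in every library, and a difference is on the log2(CPM + 1) scale. A member lay at least 0.8 above the mean of X-33 and Y-48124 in every condition, had a mean of at least 10 CPM in GS115 in every condition, and lay at least 50 kb from the ends of its contig. The members were thus chosen by the measured levels in GS115, X-33 and Y-48124, so these values are given as a description with no test. The rule picked 0.801% of all genes. In libraries made from whole cultures, fewer cells that express a gene and less of its RNA per cell cannot be told apart. With genes near contig ends included there were 46. Without genes near contig ends, 9 genes were lower in GS115 by the same margin in every condition. For these the mean of X-33 and Y-48124 had to be at least 10 CPM.

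Cultures grew in complex medium with 4% glycerol for 24 h (24 h glycerol), then for a further 24 h either in fresh glycerol medium (48 h glycerol) or in medium with 1.5% methanol (methanol). All strains were nontransgenic. GS115 is a histidine auxotroph obtained from Y-11430 by chemical mutagenesis, X-33 (commercial) and Y-48124 (a culture collection stock) are described as its revertants, and the other strains came from the USDA-NRRL collection. Each strain is therefore 1 stock, and what sets GS115 apart from its relatives, including its auxotrophy, cannot be told apart from any other change carried by that stock.

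HIS4 encodes a multifunctional enzyme of histidine biosynthesis, and its loss makes growth depend on histidine from the medium. According to the study, X-33 and Y-48124 keep the substitutions of GS115 outside HIS4, carry another substitution at the same position of HIS4, grow slowly without histidine, and have a mutation in RCR2, a gene of vacuolar sorting, with a further one in RVB1, a gene linked to DNA repair, in X-33. In Saccharomyces cerevisiae, starvation for a single amino acid switches on biosynthetic genes of many pathways through general amino acid control, and methanol growth of K. phaffii brings a large change of carbon metabolism. None of these relations was measured for the members. The deposited tables give gene identifiers without names, so a role can be stated for only 2 members: the study names GQ67_00061 NIT1, which in S. cerevisiae encodes a nitrilase, and lists GQ67_02041 as a cell wall gene with a potentially functional variant shared by GS115, X-33 and Y-48124.

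The rule used 26 libraries (8 of GS115, 9 each of X-33 and Y-48124), and the other 76 libraries were of 8 strains it did not use. Totals ran from 70901 to 16336681 counts, and 6 libraries held fewer than 1000000. The smallest was X-33 methanol replicate C with 70901 counts, where a single count is worth 14.1 CPM. Some libraries stood apart from their group. On an axis that places the methanol libraries of Y-12729 and Y-48123 near 0 and those of the strains YB-4289, YB-4290, Y-7556 and YB-378 near 1, X-33 replicates A and B lay at 0.85 and 0.92 and replicate C at -0.19. The position was 0.61 for replicate B of Y-12729, 0.47 for replicate C of Y-48123 and 0.43 for that of Y-48124. The 3 GS115 libraries lay between -0.24 and -0.19. On a second axis, from 24 h glycerol (0) to 48 h glycerol (1), the 6 Y-11430 libraries labelled 24 h lay between 0.46 and 0.59 and the 3 of GS115 between 0.11 and 0.26. Values without the methanol libraries that stood apart are given below. The Y-11430 comparison at 24 h glycerol consists of the 6 Y-11430 libraries named here, so it cannot be given without them. The 48 h glycerol libraries were not placed on an axis. There, replicate A of Y-12729 and of Y-48124 differed from the other replicates of its strain for some members. GQ67_02939 had 15.3 CPM in Y-12729 A beside 177 and 221, and 16.5 in Y-48124 A beside 131 and 117. Y-12729 A is among the reference libraries of every 48 h glycerol strain comparison below.

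The members were spread over the 4 chromosomes of the Y-11430 assembly, with 13 on chromosome 1, 7 on chromosome 2, 9 on chromosome 3 and 12 on chromosome 4, where 29.27% of the members and 19.53% of all 4961 genes at least 50 kb from an end lay. All 41 were annotated with 1 exon, as were 95.28% of those 4961 genes. Their median exon length was 1203 bases against 1380 for those genes. Starts of consecutive members on a chromosome were a median of 157343 bases apart. Only 1 pair were neighbours. GQ67_03641 (chromosome 3, 1092162 to 1093334, minus strand) and GQ67_03642 (1093599 to 1094684, plus strand) were transcribed away from each other with 264 bases between them. GQ67_01371 lay 50040 bases from the last annotated position of its contig, which served as the contig end, just inside the limit.

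In GS115 the members exceeded the mean of X-33 and Y-48124 by a median of 1.32 (24 h glycerol), 1.49 (48 h glycerol) and 2.43 (methanol), on the log2(CPM + 1) scale. Over all genes the median of the same difference was -0.21, -0.14 and 0.34. Relative to those medians the members lay 1.54, 1.62 and 2.10 higher. Of all genes, 6.31%, 6.22% and 28.4% reached 0.8 in the 3 conditions in turn, so the methanol criterion alone was the least selective. The difference was largest in methanol for 32 members, at 48 h glycerol for 5 and at 24 h glycerol for 4, and it increased in that order of conditions (24 h, 48 h, methanol) for 25. After the all-gene medians were subtracted, it was largest in methanol for 23, at 48 h for 8 and at 24 h for 10. Scaling to TMM library sizes shifted the all-gene medians by 0.23, 0.11 and -0.18, and TPM (levels per transcript length, scaled to a common total) in place of CPM shifted them by -0.18, -0.04 and 0.33.

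**Figure D1:**
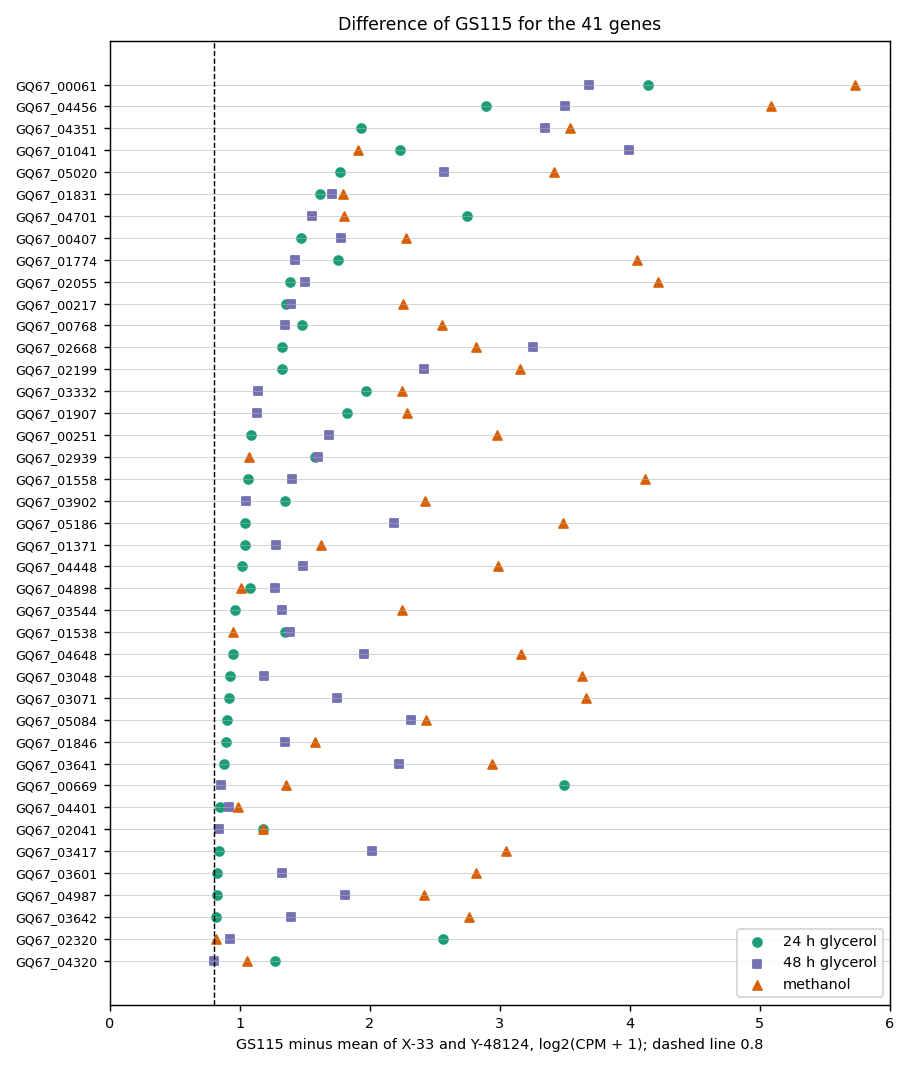
Difference of GS115 from the mean of X-33 and Y-48124 on the log2(CPM + 1) scale (horizontal axis) for the 41 members (rows, in the order of their smallest difference). Circles are 24 h glycerol, squares 48 h glycerol and triangles methanol, and the dashed line is the limit of 0.8. The largest value is 5.73, for GQ67_00061 in methanol.

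GQ67_00061 (NIT1, chromosome 2, 66393 to 67522) showed the largest difference by the smallest of its 3 values. At 24 h glycerol it had 449, 395 and 550.4 CPM in the 3 GS115 libraries, against 22.4, 16.3 and 12.9 in X-33 and 49.4, 26.9 and 40.1 in Y-48124. In the 2 GS115 libraries at 48 h glycerol it had 176 and 131 CPM, against 10.7 to 13.2 in X-33 and 4.03 to 16.8 in Y-48124. In methanol GS115 had 1067, 1161 and 434 CPM, X-33 had 4.37 to 42.3 and Y-48124 had 29.4, 24.7 and 11.0. Every GS115 library lay above every library of the other 10 strains in each condition, and the differences were 4.14, 3.68 and 5.73.

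GQ67_04456 (chromosome 4, 322786 to 324039) was set apart in the same way. Its GS115 libraries had 589.5, 479.8 and 734 CPM after 24 h, 664 and 482 after 48 h in glycerol, and 2076, 2380.1 and 866 in methanol. The X-33 and Y-48124 libraries ran from 68.4 to 106 CPM after 24 h, from 41.7 to 69.7 after 48 h of glycerol and from 14.1 to 119 under methanol. No library of another strain reached the lowest GS115 value, and the differences were 2.89, 3.50 and 5.09.

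GQ67_04351 (chromosome 4, 125819 to 126554) was the member with the highest abundance in GS115 per transcript length, with a mean of 1812 TPM over the 3 conditions, where the members ran from 31.5 TPM (GQ67_01371) through a median of 265. GS115 had 259, 243 and 363 CPM of GQ67_04351 after 24 h, 2207 and 1499 after 48 h in glycerol and 1426, 1553 and 1874 in methanol. The relatives were uneven. Y-48124 replicate B had 212 CPM at 24 h glycerol beside 50.1 and 59.5 in the other two, and replicate A had 357 at 48 h glycerol beside 109 and 73.9. The groups did not overlap in any condition, and the differences were 1.93, 3.35 and 3.54.

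GQ67_01041 (chromosome 2, 1849476 to 1850459) was the exception among the first members, because its libraries overlapped in methanol. At 48 h glycerol GS115 had 781 and 746 CPM, against 14.8 to 25.6 in X-33 and 99.0 to 121 in Y-48124, a difference of 3.99. In methanol GS115 had 499.9, 367 and 1501 CPM, X-33 had 652, 466 and 42.3 and Y-48124 had 42.1, 98.0 and 489.7. The high values of the relatives belonged to X-33 A and B and Y-48124 C, the libraries named above as standing apart, and without X-33 replicate C the methanol difference of 1.91 became 1.29, and without A and B 3.13.

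Of the next members, GQ67_05020 (chromosome 4, 1289005 to 1290553) had 192 to 393 CPM in GS115 and 62.2 to 89.9 in the relatives at 24 h glycerol, 153 to 196 against 22.8 to 34.8 at 48 h glycerol, and 348 to 883 against 42.3 to 87.7 in methanol. GQ67_01831 (chromosome 1, 2033817 to 2034608) showed nearly the same difference throughout, 1.61, 1.71 and 1.80, while its GS115 level went from 440.3 to 469 CPM at 24 h glycerol to 1701 to 2326 CPM in methanol. In GQ67_04701 the difference was largest at 24 h glycerol, with 140.4 to 297 CPM in GS115 and 14.8 to 65.8 in the relatives. GQ67_00407 differed by 1.47, 1.78 and 2.28, and reached 1305 to 2959 CPM in the methanol libraries of GS115 against 348 to 549 in the relatives. None of these 4 members showed an overlap between GS115 and its relatives.

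GQ67_01774 (chromosome 1, 2133548 to 2134438) and GQ67_02055 (chromosome 1, 1648475 to 1649929) were set apart mainly in methanol, with differences of 4.06 and 4.21 there and between 1.38 and 1.76 in the glycerol conditions. GQ67_01774 had 385, 428 and 171 CPM in the GS115 methanol libraries and 5.14 to 34.2 in those of the relatives. GQ67_02055 had 1029.6, 1091 and 232 CPM against 14.1 to 52.4. For both genes, as for GQ67_00061 and GQ67_04456, GS115 replicate C was the lowest of the 3. Without that replicate the median methanol difference of the members was 2.75, and all 41 still reached 0.8. GQ67_00217 (chromosome 2, 353769 to 354494) differed by 1.35, 1.39 and 2.25, and GQ67_00768 (chromosome 2, 1334937 to 1336478), with 2429 to 4307 CPM in GS115 and 297 to 832 in the relatives in methanol, by 1.48, 1.35 and 2.55.

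The rule uses the mean of both relatives, and the members were not equally far from each. At least 0.8 above X-33 lay 40 members in each condition, where 7.15%, 9.95% and 39.4% of all genes did. At least 0.8 above Y-48124 lay 30, 36 and 38 members in the same order of conditions, where 6.51%, 4.71% and 16.3% of all genes did. Both held in all 3 conditions for 24 members and 0.625% of all genes. GQ67_02939 at 24 h glycerol was the clearest case of a member that rested on X-33 alone. Its GS115 libraries had 24.0, 17.6 and 30.8 CPM and those of Y-48124 had 21.1, 29.3 and 18.4, while X-33 had 1.29, 1.01 and 4.13. The difference was 0.06 from Y-48124 and 3.10 from X-33. GQ67_02041, the cell wall gene, was likewise close to Y-48124 at 24 h glycerol, with 291, 222 and 358 CPM in GS115, 255, 324 and 182 in Y-48124 and 76.1, 60.6 and 55.5 in X-33.

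Every GS115 library exceeded every X-33 and Y-48124 library for 37 members after 24 h in glycerol, 40 after 48 h and 34 in methanol, and for 31 in all conditions. The same held for 8.87%, 8.8%, 12.5% and 1.39% of all genes. Without X-33 methanol replicate C, GQ67_00669 and GQ67_04401 no longer reached 0.8 in methanol. The difference went from 1.35 to 0.77 for GQ67_00669 and from 0.99 to -0.12 for GQ67_04401, which had 75.9, 80.0 and 43.8 CPM in GS115, 84.7, 119 and 0 in X-33 and 32.3, 39.8 and 91.2 in Y-48124. Without X-33 replicates A and B in place of C, 40 members reached 0.8, with a median of 2.63 against 0.16 over all genes, and GQ67_00669 and GQ67_04401 were at 2.53 and 3.21. Without replicate C 39 members reached 0.8, and their number without Y-48124 methanol replicate C was 40. Against Y-48124 replicates A and B alone, 38 members and 11.7% of all genes lay at least 0.8 higher in methanol, where the median was 2.38 over members and -0.01 over all genes.

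Just inside the limit lay GQ67_04320 with a smallest difference of 0.80, GQ67_02320 with 0.81 and GQ67_03642 with 0.82. Just outside lay GQ67_04768 with 0.78 and GQ67_01741 and GQ67_00520 with 0.77 each.

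Against strains the rule did not use, GS115 was again high for most members, although this repeats the GS115 libraries that chose them and so remains a description. GS115 had the highest mean CPM of the 11 strains for 27, 35 and 34 members in the 3 conditions, where it was highest for 10.8%, 8.8% and 30% of all genes. It was highest in all 3 for 20 members and 1.49% of all genes. Every GS115 library lay above every library of the 8 unused strains for 12, 31 and 20 members (2.8%, 4.32% and 7.19% of all genes). In all 3 conditions this held for 7 members and 0.235% of all genes: GQ67_00061, GQ67_03601, GQ67_03641, GQ67_03902, GQ67_04456, GQ67_04701 and GQ67_05020.

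Where another strain came first at 24 h glycerol, it was Y-11430 for 8 members, Y-17741 for 4 and YB-4289 for 2. Against the mean of Y-12729 and Y-48123, 2 strains nearly identical to Y-11430 in sequence, GS115 was at least 0.8 higher for 35, 34 and 37 members (7.53%, 7.9% and 22.3% of all genes), and in all 3 conditions for 27 members and 1.56% of all genes. Without Y-12729 replicate B and Y-48123 replicate C, the methanol count was 38, with 18.2% of all genes. X-33 and Y-48124 averaged within 0.8 of Y-12729 and Y-48123 for 39, 35 and 38 members, with medians of -0.07, -0.15 and -0.11. The share of all genes within 0.8 is not given here. Over all genes the median was 0.10, 0.02 and -0.20 for X-33 and 0.05, 0.09 and 0.16 for Y-48124, so closeness is not particular to the members.

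**Figure D2:**
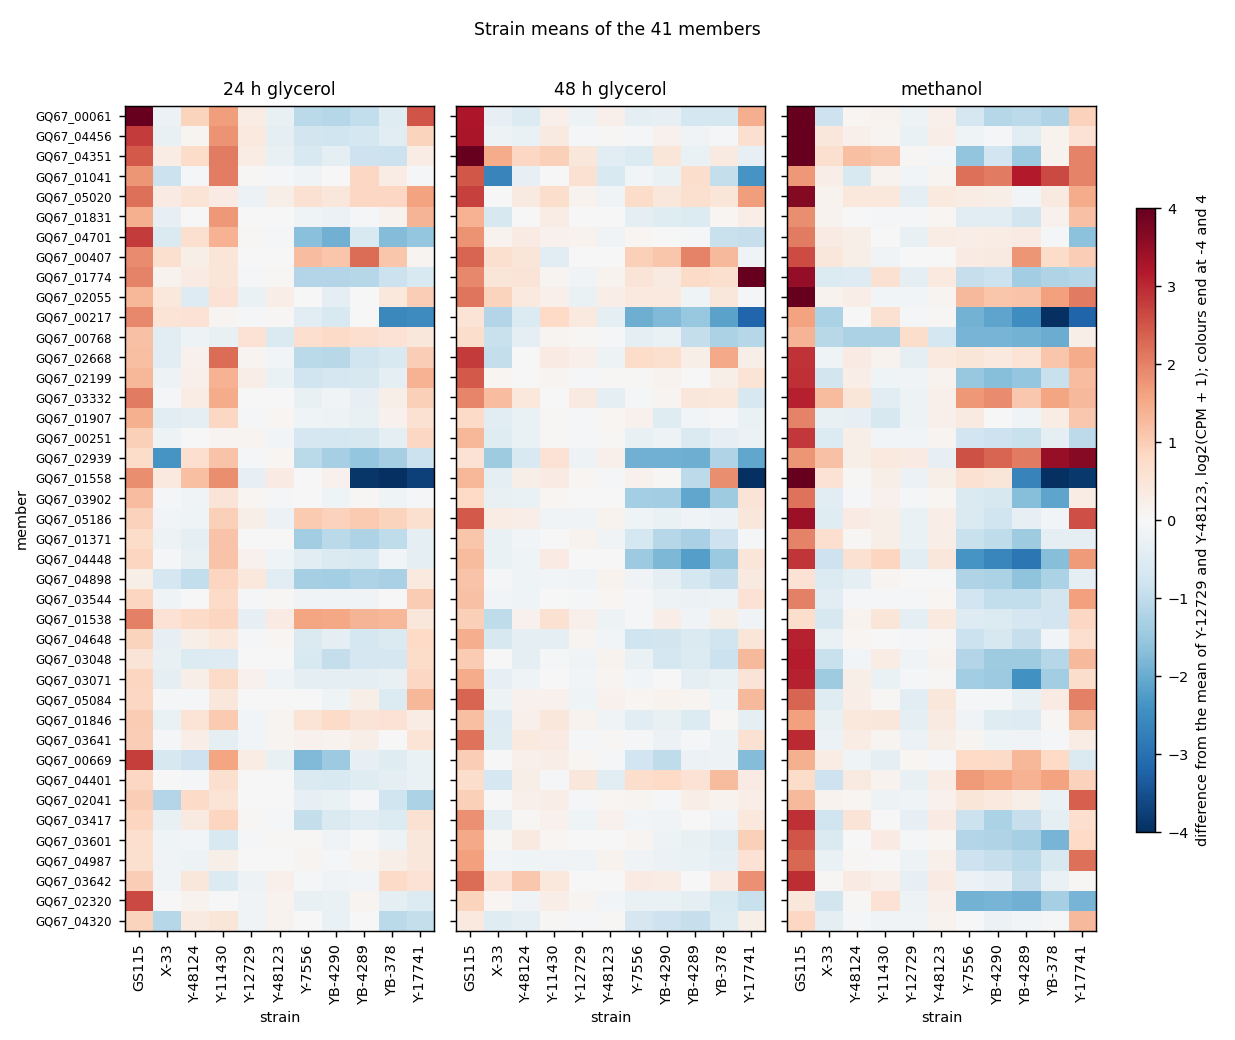
Mean level of each member (rows) in each of the 11 strains (columns) for the 3 conditions, as the difference from the mean of Y-12729 and Y-48123 on the log2(CPM + 1) scale. Red is higher and blue lower, with colours ending at -4 and 4. GS115, the left column, is above 0 for all 41 members in each condition, with medians of 1.17, 1.45 and 2.52.

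The remaining comparisons concern libraries that the rule did not use. The study grouped YB-4289, YB-4290, Y-7556 and YB-378 as Cluster 2 from expression in these same libraries. Cluster 2, Y-17741 and Y-11430 were each set against the mean of Y-12729 and Y-48123 in each condition with edgeR's two-sided quasi-likelihood test, and calls required an adjusted p (Benjamini-Hochberg) below 0.05 and a log2 fold change of 1 or more in size. In each condition the 3 comparisons share the Y-12729 and Y-48123 libraries, so they are not independent of each other. The labels give replicate letters but do not say that they mark separate cultures, so p-values measure the spread between these libraries. In all, 37 members were called in at least 1 of the 9 strain comparisons, as were 54.1% of the 5071 genes tested, and GQ67_01907, GQ67_04648, GQ67_03641 and GQ67_03417 were called in none.

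In Cluster 2 the members were more often lower than higher. At 24 h glycerol 8 fell and 2 rose (4.26% and 4.13% of all genes), at 48 h glycerol 6 fell and 1 rose (2.85% and 2.38%), and in methanol 13 fell and 4 rose (13.1% and 9.34%). The Cluster 2 libraries did not overlap those of Y-12729 and Y-48123 for 7 of these 10, 5 of 7 and 5 of 17 calls. The share of all called genes without such an overlap is not given here, so these counts say nothing particular about the members. The median log2 fold change of the members was -0.29, -0.34 and -0.59, where that of all genes tested was 0.01, 0.03 and -0.02. At 48 h glycerol the strains also differed in the number of libraries, with 1 for Y-48123.

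GQ67_00217 was the member called lower in Cluster 2 in every condition. Its mean was 5.63 ± 3.54 CPM (SD, n = 12) against 9.41 ± 2.49 (n = 6) at 24 h glycerol, with a log2 fold change of -1.20 ± 0.18 (SE, edgeR adjusted p = 2.2e-06). In methanol it was 17.6 ± 11.2 CPM (n = 11) against 91.5 ± 29.5 (n = 7), with -2.74 ± 0.37 (edgeR adjusted p = 3.5e-07). The strains were uneven at 24 h glycerol. YB-378 was the lowest of the group, with 0.659, 1.15 and 0.421 CPM, while YB-4289, with 7.03 to 11.8 CPM, lay within the range of Y-12729 and Y-48123 or just under it. In methanol YB-378 had 2.68 and 5.41 CPM. The share of all genes called lower in Cluster 2 in every condition is not given here.

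GQ67_00407 rose in Cluster 2 in both glycerol conditions. It had 334 ± 161 CPM against 87.7 to 148 in single libraries at 24 h (log2 fold change 1.46 ± 0.14, edgeR adjusted p = 3.3e-09) and 1.19 ± 0.14 on the log2 scale at 48 h (edgeR adjusted p = 1.9e-06). GQ67_01538 also rose at 24 h glycerol, by 1.49 ± 0.15 (edgeR adjusted p = 4.6e-09). In methanol the largest rises were those of GQ67_02939 (2.82 ± 0.24, edgeR adjusted p = 1.8e-10), which had 37.9 CPM against 5.43, GQ67_01041 (2.08 ± 0.57) and GQ67_04401 (1.46 ± 0.32). GQ67_02939 went the other way in glycerol, at -1.44 ± 0.17 at 24 h and -2.23 ± 0.43 at 48 h. At 48 h glycerol Y-12729 replicate A had 15.3 CPM, beside 177 and 221 in the other replicates and 113 in Y-48123. Replicate A thus lay under all Cluster 2 libraries, which ran from 22.9 to 57.8 CPM. GQ67_04448 fell by 1.90 at 48 h glycerol and by 2.70 in methanol, and GQ67_00768 fell by 1.90 in methanol, where 364.9 CPM stood against 1476. That reference of GQ67_00768 joins 1935 to 2498 CPM in Y-12729 and 361 to 1465 in Y-48123. Y-48123 replicate C, with 361 CPM, lay within the Cluster 2 range of 313 to 452. Without the methanol libraries that stood apart the log2 fold change was -2.13.

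The mean over 4 strains hid a split in GQ67_01558 (chromosome 1, 2495022 to 2496754), called lower in Cluster 2 at 24 h glycerol (-2.04 ± 0.16, edgeR adjusted p = 6.1e-11). YB-4289 had 3.22, 3.65 and 1.80 CPM and YB-378 had 0.988, 5.29 and 2.53, but Y-7556 had 46.3, 62.3 and 61.7 and YB-4290 had 39.6, 93.4 and 67.7, inside or near the range of Y-12729 and Y-48123. YB-378 at 48 h glycerol had 199, 274 and 291 CPM, above both GS115 libraries with 188 and 162. In methanol YB-378 was down at 1.78 and 0.802 CPM, where GS115 had 857, 925 and 548.

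**Figure D3:**
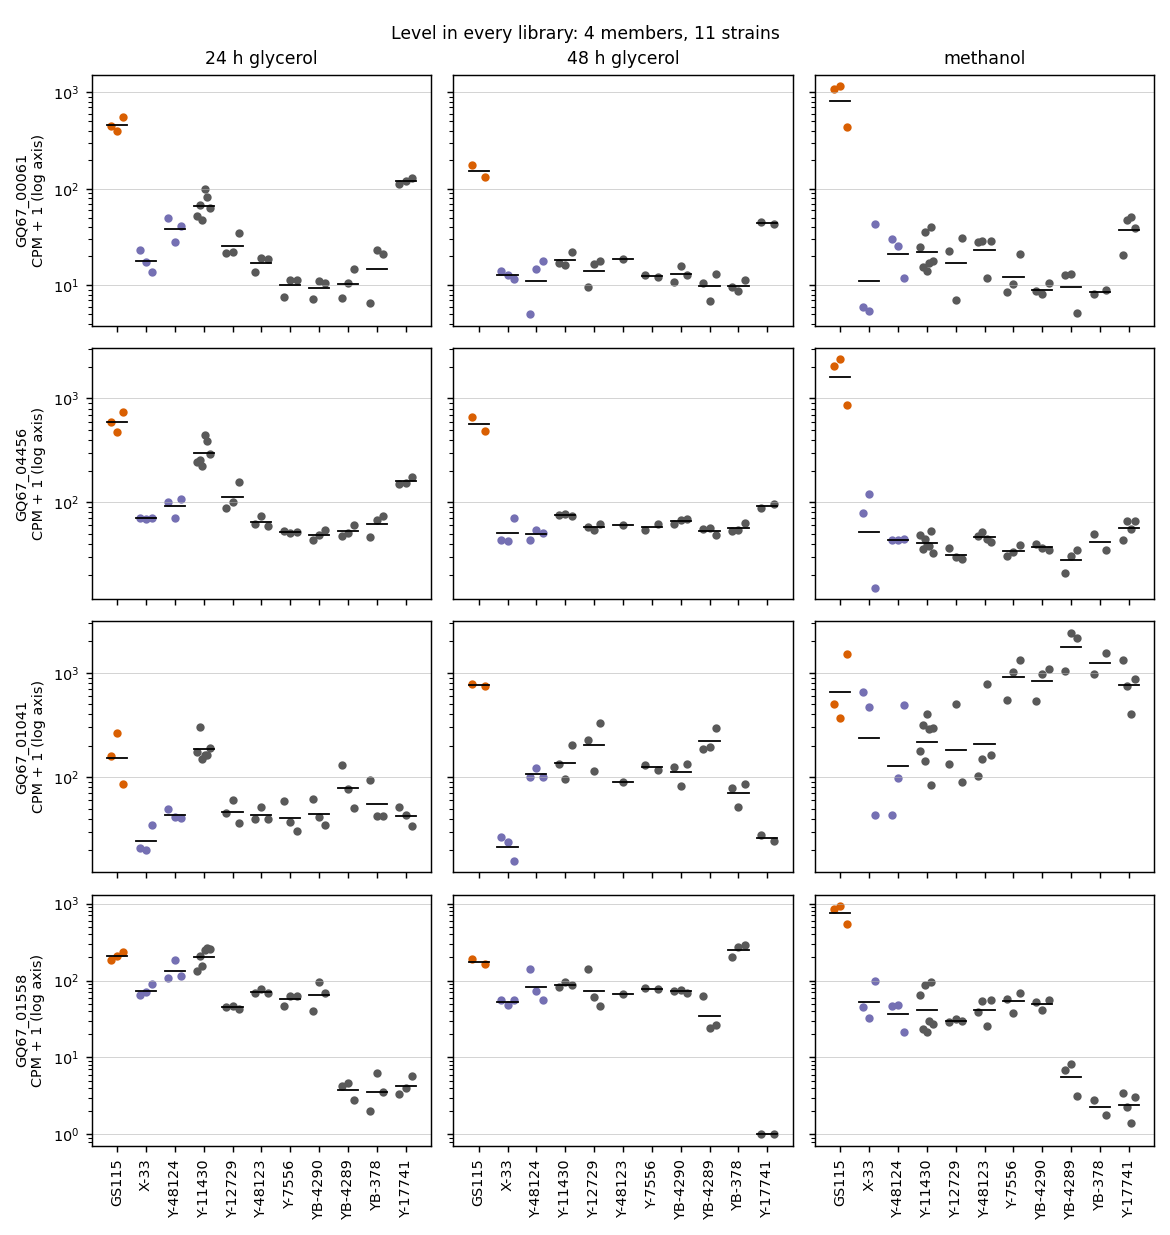
Level of 4 members in every library, as CPM + 1 on a log axis, by strain (horizontal axis) and condition (columns of panels). Points are libraries, bars are means on the log scale, GS115 is orange, X-33 and Y-48124 are violet and the other strains grey. GS115 lies above all other libraries in each panel of GQ67_00061 and GQ67_04456. It overlaps other strains at 24 h glycerol and in methanol for GQ67_01041. For GQ67_01558 it overlaps Y-11430 at 24 h glycerol and lies under YB-378 at 48 h glycerol.

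Y-17741 had 9 members higher and 4 lower at 24 h glycerol, where 1.73% of all genes were called higher and 4.38% lower. In methanol 17 rose and 6 fell (9.49% and 16.4% of all genes). At 48 h glycerol 6 rose and 8 fell (5.77% and 10.5%), from 2 libraries, and without Y-17741 replicate B the number called went from 14 to 8. The median log2 fold change of the members was 0.50, 0.06 and 0.79, in the order 24 h, 48 h and methanol, against 0.03, 0.05 and -0.02 over all genes. Reads of every strain were aligned to the Y-11430 assembly. Y-17741 and, of Cluster 2, YB-378 and YB-4289 carry many sequence differences from Y-11430. Their effect on the levels in these strains, including the low values of GQ67_01558 and GQ67_00217, was not tested.

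The 2 members that rose in Y-17741 in every condition were GQ67_05020 and GQ67_05084. Shares of all genes called higher, or lower, in Y-17741 in every condition are not given here. GQ67_05020 had 178 ± 9.25 CPM (n = 3) against 58.5 ± 12.2 (n = 6) at 24 h glycerol, a log2 fold change of 1.66 ± 0.17 (edgeR adjusted p = 7.7e-09), and 1.48 ± 0.29 and 1.52 ± 0.31 in the other conditions. GQ67_05084 rose by 1.35 ± 0.15, 1.10 ± 0.31 and 2.05 ± 0.23. GQ67_00061 (NIT1) had 111, 119 and 128 CPM in Y-17741 at 24 h glycerol, the second highest level after GS115, with a log2 fold change of 2.59 ± 0.25 (edgeR adjusted p = 3.3e-09). It was called at 48 h glycerol too (1.32 ± 0.36, edgeR adjusted p = 0.0073) but not in methanol.

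GQ67_00217, GQ67_01558 and GQ67_04701 fell in Y-17741 in every condition, again without a share of all genes beside them. GQ67_01558 had 3.38 ± 1.24 CPM against 57.5 ± 15.1 at 24 h glycerol (-3.99 ± 0.30, edgeR adjusted p = 2.4e-11) and 1.56 ± 0.92 against 36.9 ± 12.4 in methanol (-4.43 ± 0.52, edgeR adjusted p = 4.5e-08). Both Y-17741 libraries at 48 h glycerol had 0 counts of it, out of 2699222 and 800311 counts. A floor of 3 counts over the group is 0.857 CPM, so that against 77.5 CPM in Y-12729 and Y-48123 the level was at least 90.4-fold lower. GQ67_00217 had 2 counts in those 2 libraries together. GQ67_04701 fell by 1.63, 1.29 and 1.74.

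GQ67_01774 moved in both directions. At 48 h glycerol it had 832 and 683 CPM in Y-17741 and 6.98 to 18.3 in Y-12729 and Y-48123, a log2 fold change of 5.66 ± 0.43 (edgeR adjusted p = 1.5e-09), and those 2 libraries also lay above the GS115 values of 56.3 and 39.9. In methanol it had 8.12 to 14.7 CPM in Y-17741 and was called lower (-1.31 ± 0.34). Y-12729 replicate B with 9.18 CPM and Y-48123 replicate C with 12.1, both named above as standing apart, lay within that range. GQ67_02939 fell at 48 h glycerol (-2.67 ± 0.80, edgeR adjusted p = 0.016), which is lost when either Y-17741 library is left out. Both Y-17741 libraries, with 20.4 and 25.0 CPM, lay above Y-12729 replicate A with 15.3. In methanol GQ67_02939 rose by 3.84 ± 0.27 (edgeR adjusted p = 2.9e-12), to 78.8 ± 17.8 CPM against 5.43 ± 2.23. GQ67_05186 rose by 2.57 ± 0.22 and GQ67_02041 by 2.69 ± 0.47 in methanol. For GQ67_02041 the 4 Y-17741 libraries had 206, 1073, 105 and 1228 CPM and overlapped with those of Y-12729 and Y-48123. GQ67_02320 fell by 1.94 in methanol, to 33.3 CPM against 138.

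The methanol calls in Cluster 2 and Y-17741 can be set side by side. Of the 41, 11 were called higher in Y-17741 and not called in Cluster 2 (6.52% of all genes), and 6 were lower in Cluster 2 and not called in Y-17741 (8.05%). Called higher in both were 3 (2.5% of all genes), namely GQ67_01041, GQ67_02055 and GQ67_02939, and 4 were lower in both (4.6%). A further 3, GQ67_02199, GQ67_04448 and GQ67_03048, were lower in Cluster 2 and higher in Y-17741 (0.476% of all genes). A direct test between Cluster 2 and Y-17741 was not run. Without the methanol libraries Y-12729 B, Y-48123 C and Y-48124 C, 19 members were called in Cluster 2 in place of 17. In Y-17741 25 were called in place of 23. The shares of all genes without these 3 libraries are not given here. The fold change of GQ67_01041 in Cluster 2 was then 3.30 in place of 2.08 on the log2 scale, and that of GQ67_02041 in Y-17741 was 3.72 in place of 2.69.

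Y-11430, the parent of GS115, differed from Y-12729 and Y-48123 at 24 h glycerol, where 16 members rose and 0 fell (9.15% and 5.7% of all genes). The median log2 fold change of the members was 0.81, against 0.00 over all genes. At an unadjusted edgeR p under 0.05, 32 were higher and 3 lower, where 32.8% of all genes were higher and 32% lower, and DESeq2 likewise called 16 and 0. GQ67_02668 rose most, from 66.5 ± 13.7 CPM (n = 6) to 317 ± 58.9 (n = 6), a log2 fold change of 2.30 ± 0.20 (edgeR adjusted p = 5.0e-11). These Y-11430 libraries, between 242 and 384 CPM, lay above the 3 GS115 libraries with 134, 109 and 239. GQ67_04351 rose by 2.16 ± 0.23 and GQ67_01041 by 2.14 ± 0.30. All 6 Y-11430 libraries at 24 h had a median of the members above that of Y-12729 and Y-48123, by 0.57 to 0.89. As given above, these libraries lay 0.46 to 0.59 of the way from 24 h to 48 h glycerol over all genes.

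At 48 h glycerol 0 of the 41 members were called in either direction by edgeR or DESeq2, as were 0 of 5046 genes (0%), and 2 members and 198 genes had an unadjusted edgeR p under 0.05. The median log2 fold change of the members was -0.01. In methanol 0 rose and 1 fell (0.0991% and 0.0793% of all genes), and DESeq2 likewise called 0 and 1. The unadjusted edgeR p was under 0.05 for 2 higher and 4 lower, where 3.67% of all genes were higher and 8.62% lower. The 1 that fell was GQ67_00768, with 559 ± 72.6 CPM (n = 7) against 1476 ± 764 (n = 7), a log2 fold change of -1.45 ± 0.19 (edgeR adjusted p = 3.4e-05). The reference strains were unlike, with 1935 to 2498 CPM in Y-12729 and 361 to 1465 in Y-48123. The lowest of these, Y-48123 replicate C, lay under all Y-11430 libraries, which had 476 to 704 CPM. Without the 3 methanol libraries that stood apart the log2 fold change was -1.60. GQ67_02668 had 82.3 to 87.4 CPM in Y-11430 at 48 h glycerol, against 532 and 432 in GS115.

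**Figure D4:**
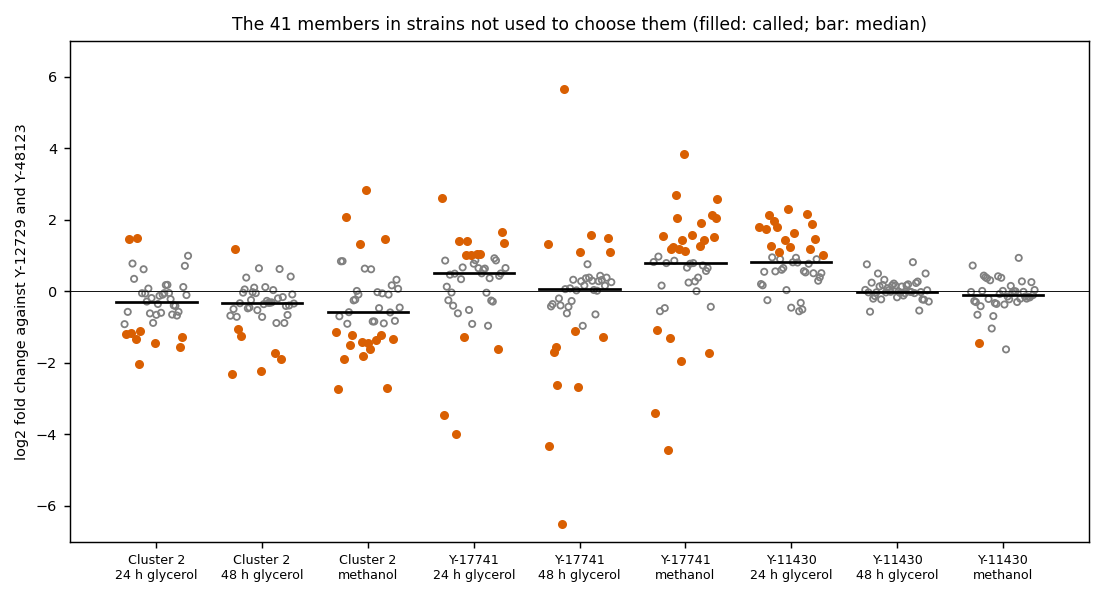
Log2 fold change (vertical axis) of the 41 members in Cluster 2, Y-17741 and Y-11430 against the mean of Y-12729 and Y-48123 in each condition. Points are members, filled where called, and bars are medians, from -0.59 (Cluster 2 in methanol) to 0.81 (Y-11430 at 24 h glycerol). GQ67_01558 in Y-17741 at 48 h glycerol is drawn at the bound of -6.50 that its 0 counts allow.

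The response of the members to methanol was measured in 7 strains the rule did not use, as the mean of Y-11430, Y-12729, Y-17741, Y-7556, YB-378, YB-4289 and YB-4290. Against 48 h glycerol 16 members rose and 2 fell, where 15.7% of all genes rose and 13.8% fell, and the median log2 fold change was 0.58 against 0.01 over all genes. GQ67_00669 rose most (3.39 ± 0.16, edgeR adjusted p = 1.4e-32), followed by GQ67_00217 (3.12 ± 0.25, edgeR adjusted p = 3.2e-19) and GQ67_01041 (3.00 ± 0.28, edgeR adjusted p = 2.7e-16). The 2 that fell were GQ67_03048 (-2.16 ± 0.15, edgeR adjusted p = 1.2e-21) and GQ67_03071 (-1.03 ± 0.11), which dropped under the fold limit, to -0.99, without Y-12729 48 h glycerol replicate B. Over Y-11430 and Y-12729 alone the values were 0.65 for GQ67_01041 and -0.41 for GQ67_03071, and neither was called. Over the 6 strains other than Y-11430, 16 members rose and 4 fell, for which the shares of all genes are not given here.

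GS115 itself had 37 members higher in methanol than at 48 h glycerol (65.9% of all genes), 22 of them by at least 1 (16% of all genes), with a median of 1.09 against 0.29 over all genes. Of the 16 that rose in the 7 strains, 15 were higher in methanol in GS115, with a median of 1.53. The exception was GQ67_01041, at -0.23. The 2 that fell in the 7 strains did not fall in GS115, where GQ67_03048 was at 0.08 and GQ67_03071 at 1.09. Among the 23 not called, GS115 ran from -2.81 to 2.66, and 20 were positive. The lowest was GQ67_02939, with 155 and 141 CPM at 48 h glycerol and 28.4, 31.7 and 9.02 in methanol.

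Between 24 h and 48 h glycerol the members had no common direction in the mean of the 7 strains. There, 6 members were higher and 8 lower (13.8% and 14.8% of all genes), with a median of -0.13. The average includes the Y-11430 libraries at 24 h, which lay 0.46 to 0.59 of the way to 48 h. Over the 6 other strains 9 members rose and 9 fell, and over the 4 Cluster 2 strains alone 12 rose and 12 fell. Shares of all genes for these 2 sets of strains are not given here, so a change in calls over all genes cannot be told apart. GQ67_02939 rose most (2.56 ± 0.18, edgeR adjusted p = 1.9e-22), with GQ67_04401 (1.73 ± 0.20) and GQ67_00669 (1.50 ± 0.17). The last was at 0.85 and not called over Y-11430 and Y-12729 alone. The neighbours GQ67_03642 (-3.13 ± 0.14, edgeR adjusted p = 2.7e-32) and GQ67_03641 (-2.20 ± 0.08, edgeR adjusted p = 3.3e-37) fell together, as did GQ67_03601 (-1.82 ± 0.11). The levels of GQ67_03642 were 611 ± 276 CPM (n = 24) at 24 h and 70.0 ± 40.7 (n = 19) at 48 h. In GS115 the same gene had 1217, 1057 and 1192 CPM at 24 h and 209 and 245 at 48 h, and GQ67_03641 had 466, 447 and 472 and then 232 and 228. The decline in GS115 was 2.34 and 1.00 on the log2 scale. In methanol GQ67_03641 had 770.1, 794 and 468 CPM in GS115 and 57.6 to 108 in its relatives, and GQ67_03642 had 504, 486 and 263 against at most 88.7.

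**Figure D5:**
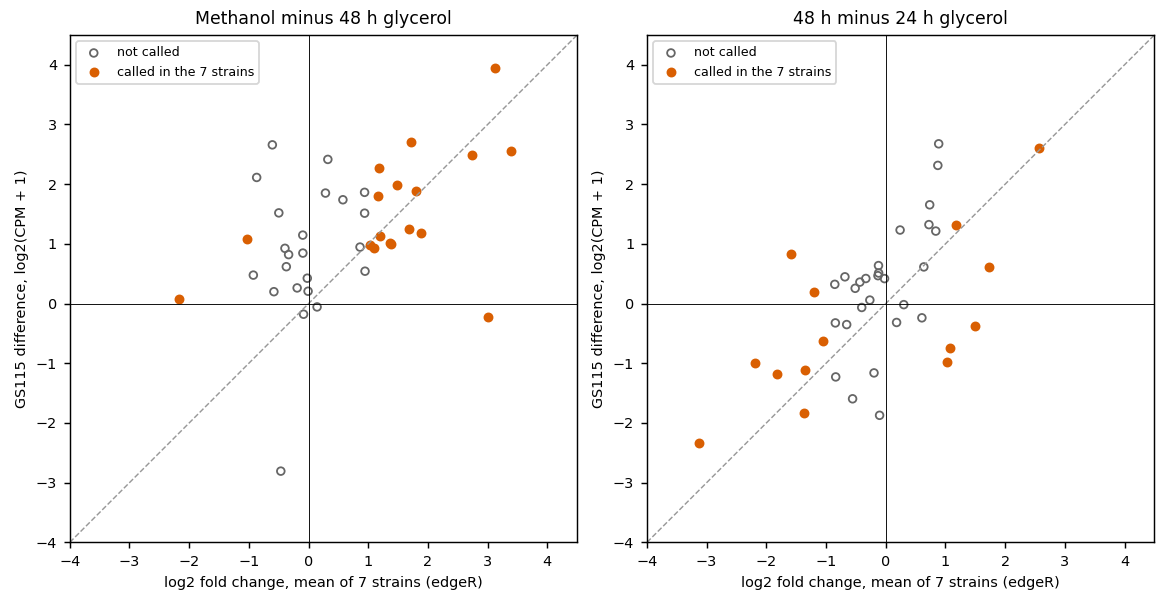
Response of the 41 members to methanol (left) and to the further 24 h in glycerol (right), with the log2 fold change over the 7 unused strains on the horizontal axis and the GS115 difference on the log2(CPM + 1) scale on the vertical axis. Filled points were called in the 7 strains and the dashed line marks equal values. GQ67_02939 lies lowest on the left, at -2.81 in GS115.

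Across the 76 libraries of the 8 unused strains, with the mean of each condition removed, pairs of members had a median Pearson r of 0.23, and 21.34% of the 820 pairs exceeded 0.5. Pairs of all 4694 genes with a mean of at least 10 CPM had a median of 0.08, and 10.02% exceeded 0.5. The libraries of a strain share that strain and the members share each library and its depth, so these values are a description. They were unevenly spread. With more than 0.5 against at least 11 others stood 18 members, of which GQ67_03544 had 19 such partners, and 14 members had a median r of 0.15 or less. The closest pairs were GQ67_03544 with GQ67_04987 (0.92) and GQ67_02199 (0.90), and GQ67_02199 with GQ67_03071 (0.87). The neighbours GQ67_03641 and GQ67_03642 had 0.66. GQ67_00407, with a median r of -0.24 against the other members, had none above 0.5.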

How the data were processed

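Messenger RNA of 11 strains in 3 conditions was sequenced with 40-nt reads (102 libraries). The authors aligned reads with STAR 2.5.3a to their Y-11430 assembly and estimated levels with RSEM 1.3.0, as the labels and methods state, with the strand setting not given in the sources used here. They deposited estimated counts per gene, all of them whole numbers, and values of log2(TPM + 1), and coordinates follow their deposited annotation. Of 5167 annotated features, 51 have no values. The far end of each contig was taken as the end of its last annotated feature, so distances to that end are measured from there. CPM was computed from the deposited counts with a pseudocount of 1 CPM. TPM served only to compare levels between genes and as an alternative scale.

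The members and lists were chosen with earlier results of these data known. Counts were tested with edgeR 4.0.16 in R 4.3.3 (TMM, filterByExpr, robust quasi-likelihood F-test, Benjamini-Hochberg adjustment over all genes tested) in 1 fit per condition for the strain comparisons and 1 fit over all 102 libraries for the responses, averaged over 7 strains, after a check on simulated counts. DESeq2 1.42.0, other library sizes, no filter, a replicate block, other thresholds and leaving out each library were alternatives. Named are the 12 members with the largest smallest difference, the 3 genes on either side of the limit, the 3 called members with the largest change in each direction per comparison, members the study annotates, neighbouring members and those with the highest and lowest TPM. Other members named in the text were chosen after their values were seen.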

Additional observations from a re-analysis of the deposited data

Results flagged for a closer look

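In groups of 4 to 10 libraries, the gap between the most extreme library and its neighbour was compared with the range of its group for members in the 52 cases that could be tested, and 5 passed Dixon's 95% limit, where chance gives about 1 in 20. Of these, 3 came from the methanol libraries of Y-48123, where replicate C was the extreme library. Its gap was 0.966 of the range for GQ67_00061, with 11.0 CPM beside 27.3 to 27.9, 0.837 for GQ67_04351 and 0.913 for GQ67_01041, with 781 CPM beside at most 161 in the others, against a limit of 0.829 for 4 libraries. This library also lay at 0.47 on the methanol axis. The other 2 were Y-11430 replicate B at 24 h glycerol, with a gap of 0.736 for GQ67_01041 (305 CPM beside 147 to 189) and 0.871 for GQ67_04701, against a limit of 0.625 for 6 libraries.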

How the results depend on the processing

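The number of members depended on the threshold and scale. A threshold of 0.6 gave 75 and one of 1.0 gave 24, and TMM library sizes gave 63, of which 38 were among the 41. Leaving out 1 library at a time gave 32 (without GS115 24 h glycerol replicate C) to 50 (without GS115 24 h glycerol replicate B). With an adjusted p alone and no minimum fold, the members called went from 10, 7 and 17 to 25, 16 and 29 in Cluster 2 (48.2%, 26.5% and 58.6% of all genes), from 13 to 24 in Y-17741 at 24 h glycerol (28.6%), from 16 to 34 in Y-11430 at 24 h glycerol (61.4%), and from 18 and 14 to 32 and 33 in the responses to methanol and to further glycerol (80.9% and 81%). The 4 Cluster 2 strains alone gave 24 for the latter, without a share of all genes here. Leaving out 1 library gave 10 to 11, 6 to 9 and 16 to 20 in Cluster 2, 10 to 13, 8 to 15 and 20 to 26 in Y-17741, 15 to 17, 0 and 1 in Y-11430, and 16 to 19 and 12 to 14 in the responses. DESeq2, RLE size factors, no filter and leaving out libraries under 1000000 counts kept all 11 counts within 1.5 times. The median r of same-letter libraries was 0.024 across strains and -0.016 across conditions, against -0.008 and 0.006 for other letters. Single pairs across strains ran from -0.72 to 0.91 for the same letter and from -0.88 to 0.81 for other letters. In methanol, replicate C stood apart in both Y-48123 and Y-48124, but replicate B did so in Y-12729. Whether some letters pair libraries was thus not decided by these medians. The replicate block gave 6 in Cluster 2 and 12 in Y-17741 at 48 h glycerol and 16 in Y-11430 at 24 h glycerol. Where a count moved, the cause was not tested beyond the fold limit and the libraries removed. With 2 GS115 libraries at 48 h glycerol and 70901 counts in X-33 methanol replicate C, low levels in these groups are imprecise.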
